A study of Mus musculus with 8 samples.

Results

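The genes examined here encode transport proteins and a secreted marker of the thick ascending limb of the loop of Henle: Slc12a1, Kcnj1, Bsnd, Cldn16, Egf and Atp1b1. Every array element whose platform symbol, or symbol in the tables of regulated elements of the paper, named one of these 6 genes was taken. This gave 4 elements for 4 genes, among 12798 elements that carry one of 9078 gene names. Kcnj1 and Cldn16 had no element under their symbol, their Entrez identifier or a synonym and are reported as unmeasured.

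The samples were whole kidneys of 4 male mice homozygous for Umod A227T and 4 male mice heterozygous for Umod C93F, both chemically induced missense mutations of the uromodulin gene on the C3HeB/FeJ background. The methods give ages of 17 weeks for Umod A227T and 38 weeks for Umod C93F, and the labels give 19 and 39 without a unit. Each mouse was hybridised on 2 spotted cDNA arrays with exchanged dyes against wild-type RNA of its own line, which the labels call a pool of 6 control animals and the methods call 4 wild-type littermates. Line, age, zygosity, wild-type pool and array series coincide, so that their parts in a difference between the lines cannot be told apart. The pool is 1 control sample per line, and no p-value includes the variation among wild-type mice.

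In the thick ascending limb, the apical cotransporter encoded by Slc12a1 (NKCC2) takes up sodium, potassium and chloride, and the potassium channel encoded by Kcnj1 (ROMK) returns potassium to the lumen. Chloride leaves through basolateral channels, which need the subunit barttin encoded by Bsnd, and sodium leaves through the Na,K-ATPase, whose beta 1 subunit is encoded by Atp1b1. Cldn16 forms part of the paracellular route for magnesium and calcium, and Egf, made in the thick ascending limb and the distal convoluted tubule, is a precursor of epidermal growth factor. Uromodulin itself is made in this segment, and the mutant protein is retained in its cells.

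The ratios below are log2 of mutant over wild-type pool. Which dye marked the mutant RNA is not stated in the labels. The sign follows the processed ratios of the authors and the legends to their tables of regulated elements. It is a likely direction and not a settled one, since the scan names taken at their word would reverse each ratio. All 4 elements had the same clone name in the scans of both lines, and none had a saturated pixel on any array. The arrays of Umod C93F were dimmer, with 15.3% to 42.3% of spots passing the background filter, against 56.6% to 73.7% on the arrays of Umod A227T. As markers of kidney, the element of Umod was above background in all 4 mice of both lines, and 9 of 10 elements for proximal tubule genes were tested in each line.

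Of the 4 elements, 1 was measured. An element counted as measured in a line where at least 3 of the 4 mice had, on each of their arrays, a red or a green foreground of 2 or more times the local background. Atp1b1 met this in both lines, and Slc12a1, Bsnd and Egf met it in neither line.

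The element of Slc12a1 (MG-12-169a2) came closest to the limit in Umod A227T. Its foreground was 1.48 to 3.66 times background, with a median of 2.29 over 16 channel readings, and 11 of the 16 readings reached the limit. The limit was reached on 6 of 8 arrays, but on both arrays of only 2 mice, mouse 1 and mouse 4. The log2 ratio of Slc12a1 was 0.55, 0.09, 0.05 and -0.06 in Umod A227T mice 1 to 4. Mouse 1 stood above the other 3, and its 2 arrays gave 0.88 and 0.21. The 2 mice that passed the limit thus had the highest and the lowest ratio of the line. In Umod C93F the foreground of Slc12a1 was 0.94 to 1.34 times background, and none of 16 readings reached the limit. The log2 ratios of -0.08, 0.05, -0.17 and 0.03 in Umod C93F mice 1 to 4 compare readings at background.

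The element of Bsnd (MG-12-188d10) was marked as not found on all 8 arrays of Umod A227T, with a foreground of 0.84 to 1.11 times background. The log2 ratio of Bsnd was -0.04, 0.02, -0.05 and -0.12 in Umod A227T mice 1 to 4. These are ratios of 2 background readings. No spot was marked as not found on any array of Umod C93F, against 3100 to 5894 spots on the arrays of Umod A227T. The missing mark in Umod C93F does not show that an element was found. In Umod C93F the foreground of Bsnd was 1.11 to 2.50 times background, and 2 of 16 readings reached the limit, both in the red channel and both in mouse 2. The log2 ratio was 0.07, -1.09, -0.04 and 0.14 in Umod C93F mice 1 to 4. The low value of mouse 2 rested on 1 array. There the red foreground was 526 over a background of 210, the green foreground was 103 over a background of 92, and the log2 ratio was -2.62, against 0.44 on the dye-swapped array of the same mouse.

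The element of Egf (s0-Egf) was marked as not found on 7 of 8 arrays of Umod A227T. Its foreground was 0.95 to 1.19 times background in Umod A227T and 0.85 to 1.15 times background in Umod C93F. The log2 ratio of Egf was -0.16, 0.08, -0.06 and 0.15 in Umod A227T mice 1 to 4, and 0.01, 0.11, 0.01 and -0.03 in Umod C93F mice 1 to 4. Egf was not detectable with this element in either line, which leaves its transcript level unknown.

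**Figure D1:**
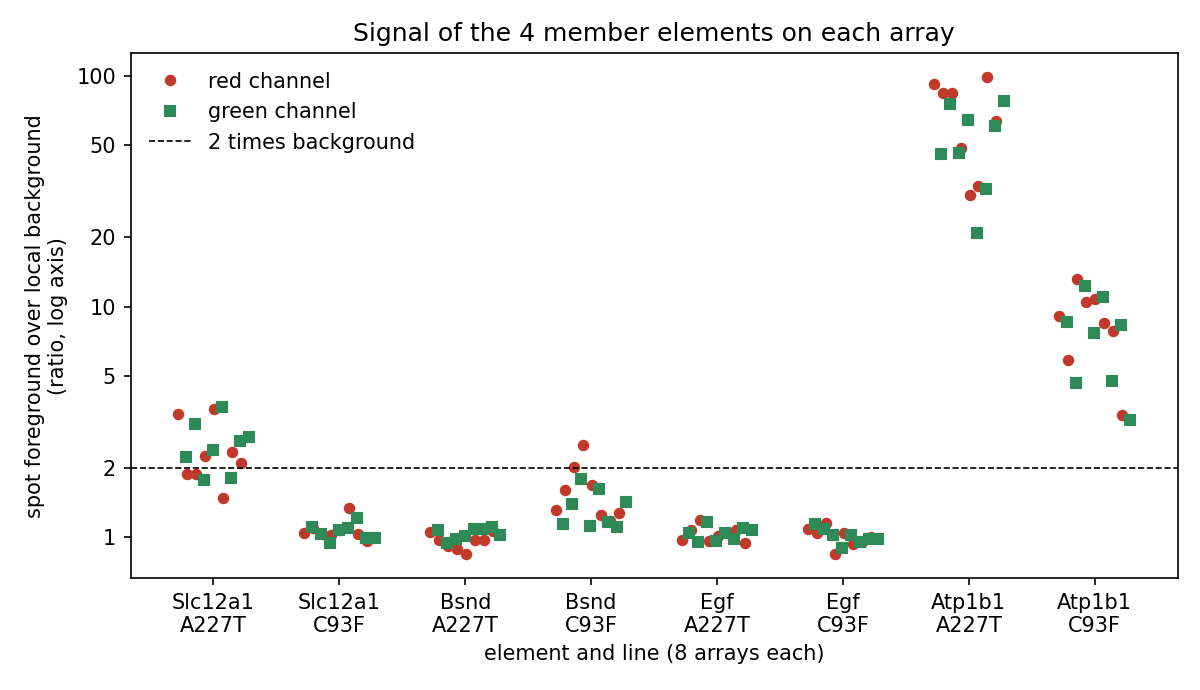
Spot foreground divided by local background (log axis) for the elements of Slc12a1, Bsnd, Egf and Atp1b1 on the 8 arrays of Umod A227T and the 8 arrays of Umod C93F, with red and green channels as separate points and the limit of 2 as a dashed line. Atp1b1 lies above the limit on every array, at 20.8 to 98.9 in Umod A227T and 3.21 to 13.2 in Umod C93F, Slc12a1 straddles it in Umod A227T, and Egf stays near 1.

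The element of Atp1b1 (MG-6-69k15) did not change beyond the thresholds in either line. Whole kidney RNA does not show which segments gave the Atp1b1 signal, so the ratio is not one of the thick ascending limb alone. The log2 ratio of Atp1b1 was 0.09, 0.26, -0.10 and 0.12 in Umod A227T mice 1 to 4. It was above 0 in 3 mice and below 0 in mouse 3. The mean was 0.09 ± 0.15 (SD, n = 4), with a 95% interval of -0.08 to 0.27 (limma, adjusted p = 0.565). The interval allows a level from 1.06-fold lower to 1.20-fold higher than in the wild-type pool, short of the threshold fold of 1.4. In that line 166 of 9211 tested elements were called, that is at an adjusted p under 0.10 with a fold over 1.4, which is a background of 1.80%, and Atp1b1 was not among them.

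In Umod C93F mice 1 to 4 the log2 ratio of Atp1b1 was 0.01, 0.09, -0.37 and -0.19. The mice lay on both sides of 0, with mouse 3 lowest. The mean was -0.12 ± 0.21 (SD, n = 4), with a 95% interval of -0.27 to 0.04 (limma, adjusted p = 0.288). This interval allows a level from 1.21-fold lower to 1.03-fold higher. The background in Umod C93F was 35 called elements of 3335 tested, or 1.05%. Atp1b1 was among the more variable elements of this line. Its SD of 0.21 compares with a median SD of 0.09 over the tested elements, and 4.44% of them had a larger one. In Umod A227T its SD of 0.15 equalled the median SD of 0.15.

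The direct comparison of the lines gave a difference of 0.21 for Atp1b1, Umod A227T minus Umod C93F, with a 95% interval of -0.02 to 0.44 (limma, adjusted p = 0.189). The mice of the lines overlapped: the lowest Umod A227T mouse was at -0.10 and the highest Umod C93F mouse at 0.09. Of the 2166 elements tested in both lines, 114 were called for the difference, a background of 5.26%. The interval does not reach log2 of 1.4, which is 0.49, but it does not show that the lines are alike for Atp1b1.

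The dye-swapped arrays of a mouse disagreed for Atp1b1 in the same sense in all 8 mice. The scans named CY3 first gave the higher ratio in each mouse. In Umod A227T these scans gave 0.33, 0.36, 0.12 and 0.20 in mice 1 to 4, and the scans named CY5 first gave -0.14, 0.17, -0.33 and 0.03. In Umod C93F they gave 0.49, 0.44, 0.12 and 0.09, and the scans named CY5 first gave -0.47, -0.26, -0.87 and -0.47. The 2 arrays were therefore of opposite sign in all 4 Umod C93F mice and in 2 of 4 Umod A227T mice. The part of the ratio that followed the dye, which is the distance of each array from the mean of its pair, averaged 0.16 in Umod A227T and 0.40 in Umod C93F. The median over tested elements was 0.12 in Umod A227T and 0.16 in Umod C93F. A dye part at least as large was present in 36.5% of tested elements of Umod A227T and 3.45% of those of Umod C93F. In both lines it exceeded the mean ratio of Atp1b1 itself, and it cancels only in the mean of both orientations.

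**Figure D2:**
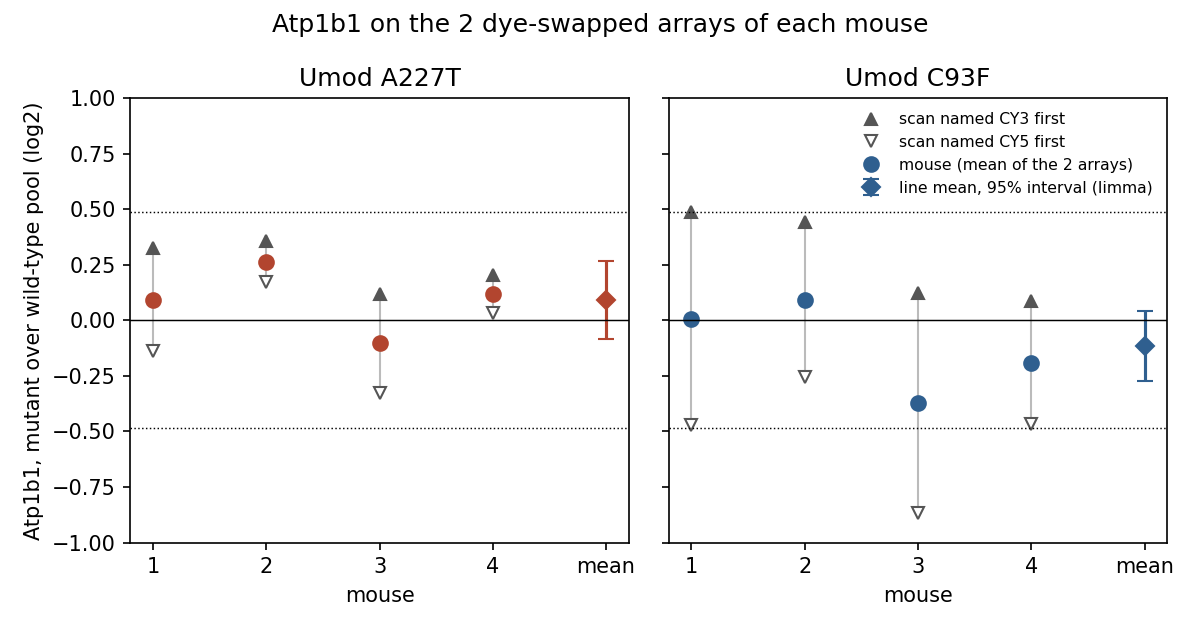
Log2 ratio of Atp1b1, mutant over wild-type pool, in Umod A227T (left) and Umod C93F (right) on the scans named CY3 first (filled triangles) and CY5 first (open triangles) of mice 1 to 4, with the mean of each mouse (circles) and the line mean with its 95% interval (diamond); dotted lines mark a fold of 1.4. The filled triangle lies above the open one in all 8 mice, and both intervals include 0.

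With only 1 orientation, a setting chosen after seeing the data, the value of Atp1b1 took either sign. Scans named CY3 first gave 0.25 in Umod A227T (adjusted p = 0.157) and 0.28 in Umod C93F (limma, adjusted p = 0.0144). Scans named CY5 first gave -0.07 in Umod A227T (adjusted p = 0.712) and -0.52 in Umod C93F (limma, adjusted p = 0.00136), and only this last value passed both thresholds. With both orientations, 15 other settings gave a value in each line and 20 gave one for the difference. All kept the direction of Atp1b1 and left it uncalled. Settings that changed only the filters, the thresholds or the elements per gene, or added the replicate number as a block, left its value unchanged. Their kept direction is therefore no separate support. The values ran from 0.04 to 0.23 in Umod A227T, from -0.20 to -0.03 in Umod C93F and from 0.12 to 0.44 for the difference.

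Among the settings that kept both orientations, median centring in place of loess moved Atp1b1 most. It gave 0.23 in Umod A227T (limma, adjusted p = 0.0649), -0.20 in Umod C93F (limma, adjusted p = 0.0699) and 0.44 for the difference (limma, adjusted p = 0.00384), all under the fold threshold. The 95% interval of that difference, 0.22 to 0.65, includes a fold of 1.4. Single mice also moved the value. Without Umod A227T mouse 2 the mean of that line was 0.04, without Umod A227T mouse 3 it was 0.16, without Umod C93F mouse 2 that line stood at -0.18, and without Umod C93F mouse 3 it stood at -0.03. The difference was 0.12 without Umod C93F mouse 3.

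**Figure D3:**
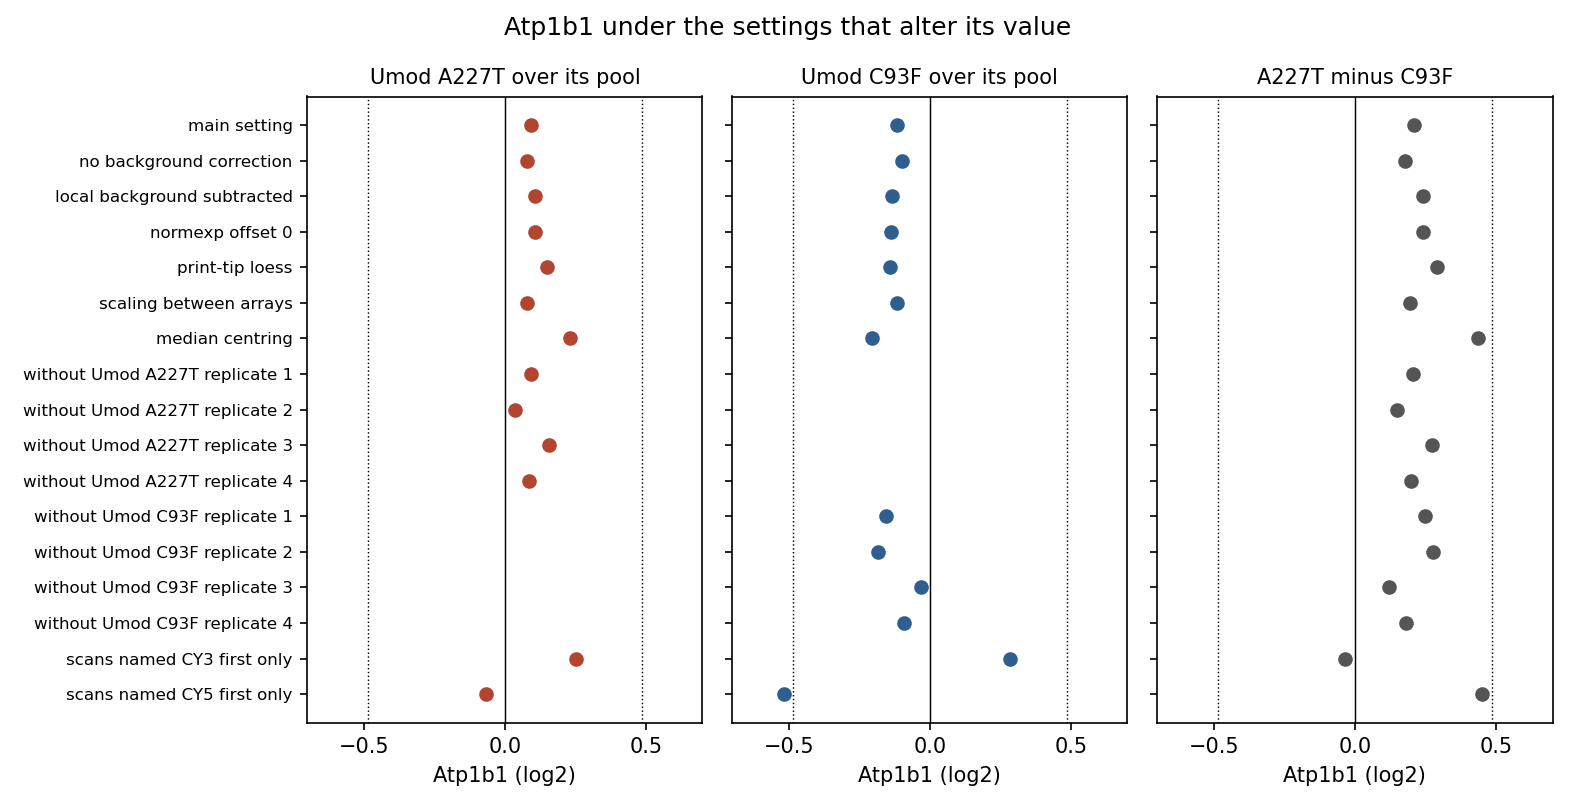
Log2 value of Atp1b1 in Umod A227T (left), in Umod C93F (middle) and as Umod A227T minus Umod C93F (right) under the main setting and those that alter the value, with 0 as a solid line and a fold of 1.4 as dotted lines. With both dye orientations the points keep their side of 0, between 0.04 and 0.23 in Umod A227T and between -0.20 and -0.03 in Umod C93F, and with 1 orientation they fall on either side.

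The processed ratios that the authors deposited hold no value for Atp1b1 in any of the 8 mice, although its spots were well above background on every array. This was so for 165 of the 2166 elements tested in both lines, or 7.62%. For Slc12a1 the deposited ratios hold 1 value in Umod A227T, -0.10 in mouse 4, where the scans gave -0.06. In Umod C93F they hold 3 values, 0.38, -1.37 and -0.38 in the columns of mice 1 to 3. All 3 come from spots that were under the limit of 2 times background, and they lie further from 0 than the ratios of -0.17 to 0.05 from the scans. For Bsnd they hold 0.34, -0.30 and 0.37 in the columns of Umod C93F mice 2 to 4, and for Egf 0.04 in the column of Umod C93F mouse 2. The columns of Umod C93F mice 1 and 2 matched the scans of the other mouse better than their own (r of 0.87 over 3032 and 3036 elements, against 0.54 and 0.49), which leaves the line means untouched.

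Of the other Na,K-ATPase subunits examined and the FXYD proteins that regulate the pump, 7 of 10 elements were tested in Umod A227T and 4 of 10 in Umod C93F, and none was called in either line. The median log2 ratio of this list was 0.09 in Umod A227T and -0.07 in Umod C93F, against 0.01 and 0.02 over all tested elements of these lines. Fxyd2, the gamma subunit, had a log2 ratio of 0.09 ± 0.13 in Umod A227T (SD, n = 4; limma, adjusted p = 0.545) and -0.13 ± 0.11 in Umod C93F (SD, n = 4; limma, adjusted p = 0.124). The difference for Fxyd2 was 0.22 (limma, adjusted p = 0.102), beside 0.21 for Atp1b1. With median centring Fxyd2 was 0.26 in Umod A227T (limma, adjusted p = 0.0440) and 0.40 for the difference (limma, adjusted p = 0.00380), both under the fold threshold. Atp1b3, which encodes another beta subunit of the pump, had 3 elements tested in Umod A227T, and the one tested in both lines (MG-3-91a10) gave 0.18 ± 0.20 in Umod A227T (SD, n = 4; limma, adjusted p = 0.256) and -0.08 ± 0.15 in Umod C93F (SD, n = 4; limma, adjusted p = 0.351). Without mouse 4 the value of that element was -0.0115 in Umod C93F (limma, adjusted p = 0.901). The other 2 elements of Atp1b3 gave 0.13 and -0.02 in Umod A227T and were too dim to be tested in Umod C93F. Atp1b2, a further beta subunit, had a log2 ratio of 0.09 ± 0.08 in Umod C93F (SD, n = 4; limma, adjusted p = 0.196) and was too dim to be tested in Umod A227T.

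Umod, the mutated gene, was not called in either line (element MG-12-286p16). The log2 ratio was -0.14, 0.07, -0.10 and -0.10 in Umod A227T mice 1 to 4 and -0.32, -0.46, -0.15 and -0.36 in Umod C93F mice 1 to 4. Its mean was -0.07 in Umod A227T (limma, adjusted p = 0.658) and -0.32 in Umod C93F (limma, adjusted p = 0.00356, fold 1.25). The value in Umod C93F depended on the normalization: it was -0.42 with median centring (limma, adjusted p = 0.00116), -0.11 with print-tip loess (limma, adjusted p = 0.152) and -0.13 with the ratios of the authors (limma, adjusted p = 0.650). The difference for Umod was 0.25 (limma, adjusted p = 0.0526), under the fold threshold. It was called at 0.49 with median centring (limma, adjusted p = 0.00129), and was 0.0735 with print-tip loess (limma, adjusted p = 0.510) and 0.14 with the ratios of the authors (limma, adjusted p = 0.465). Among 15 other genes of the segment, Umod included, 8 of 12 elements were tested in Umod A227T and 3 of 11 in Umod C93F, and none was called in either line. The median of this list was -0.04 in Umod A227T and -0.23 in Umod C93F. Ppp1r1a, which encodes an inhibitor of protein phosphatase, gave -0.35 ± 0.28 for the element s1-Ppp1r1a in Umod A227T (SD, n = 4; limma, adjusted p = 0.0531), under the fold threshold, and the other element of Ppp1r1a gave -0.01 in that line (limma, adjusted p = 0.952). Claudin 19, the partner of the Cldn16 product in the tight junction, had a log2 ratio of 0.32 ± 0.09 for Cldn19 in Umod A227T (SD, n = 4; limma, adjusted p = 0.0212), under the fold threshold, and was unmeasured in Umod C93F. The 2 elements of Cldn10, a claudin of the paracellular sodium route, gave -0.10 and -0.09 in Umod A227T and -0.23 and -0.06 in Umod C93F. With an adjusted p of 0.0432 (limma) for MG-14-18i7 and 0.41 for MG-12-246h20 in Umod C93F, they did not give the same answer there. The adjusted p of MG-14-18i7 in Umod C93F was 0.119, 0.144 and 0.151 (limma) without mouse 1, mouse 3 and mouse 4.

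**Figure D4:**
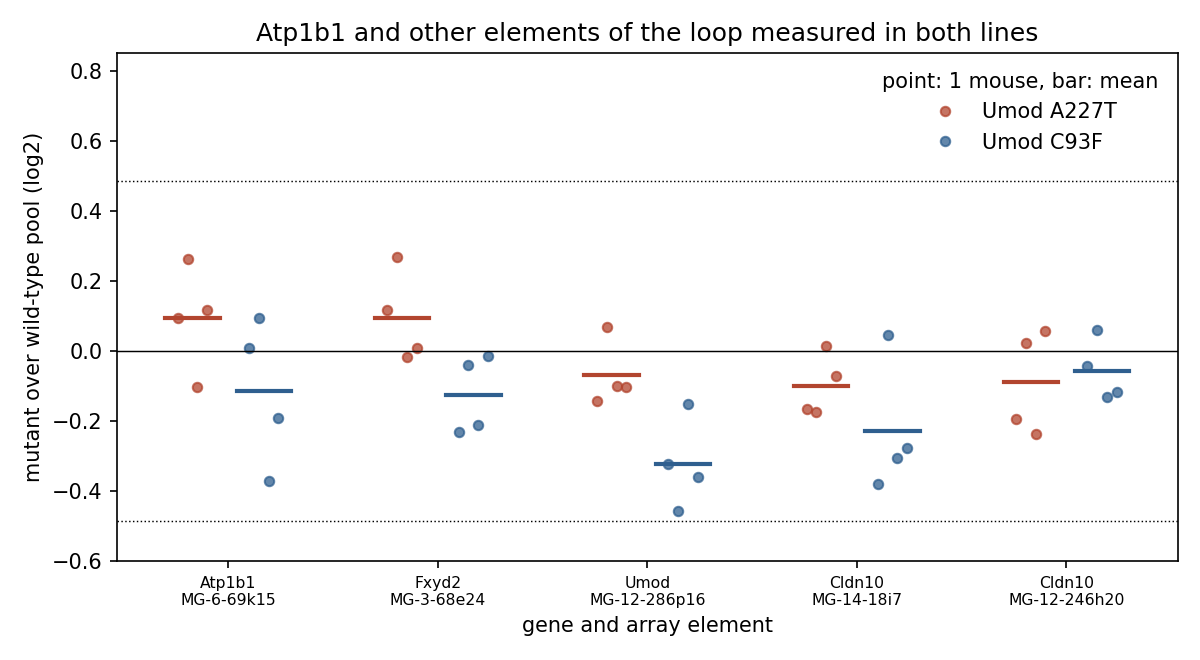
Log2 ratio, mutant over wild-type pool, of Atp1b1, Fxyd2, Umod and both elements of Cldn10 in the 4 Umod A227T mice (left of each pair) and the 4 Umod C93F mice (right), with a bar at the mean and dotted lines at a fold of 1.4. No mouse lies beyond a fold of 1.4, and the mice of the lines overlap for Atp1b1, with -0.10 to 0.26 in Umod A227T and -0.37 to 0.09 in Umod C93F.

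Kinases, ubiquitin ligases and receptors that regulate transport in the limb, such as Wnk1, Nedd4l and Pth1r, were not called. In this list of 16 genes, 5 of 18 elements were tested in Umod A227T and 3 of 18 in Umod C93F, with none called and medians of 0.05 in Umod A227T and -0.11 in Umod C93F. The elements MG-14-115a11 of Wnk1 and MG-6-86j14 of Nedd4l were too dim to be tested in Umod C93F. Pth1r was at -0.06 in Umod A227T (limma, adjusted p = 0.820). In Umod C93F it was at -0.23 (limma, adjusted p = 0.0068), under the fold threshold.

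Among 1496 elements of other named genes tested in both lines, those whose mouse-to-mouse deviations from the line means were most like those of Atp1b1 were Ypel5 (r = 0.95), Rbl2 (r = 0.90) and Ppm1m (r = 0.90). These correlations are over 8 mice, 4 in each line, which share the wild-type pool within a line, and are given as a description. None of the 3 had a mean beyond 0.14 from 0 in either line. Over the same deviations r between Atp1b1 and Umod was -0.33.

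In whole kidney RNA, fewer cells of a type and less RNA per cell cannot be told apart, and RNA of other cells moved beside these values. Of the elements for red cell genes, which are mostly haemoglobin chains such as Hba-a1, Hba-a2 and Hbb-b1, 10 of 11 tested were lower in Umod A227T (background of lower calls 1.01%; median -0.74), and none of 10 was called in Umod C93F (median -0.27). Of the adipocyte elements, 3 of 9 tested, of Fabp4, Ucp1 and Car3, were higher in Umod A227T (background of higher calls 0.793%; median 0.21, range -0.46 to 0.82), and none of 3 was called in Umod C93F (median -0.33). Of the proximal tubule elements, 1 of 9, of Ass1, was higher in Umod A227T (median -0.05), and 3 of 9, of Slc34a1, Slc22a6 and Slc13a3, were lower in Umod C93F (background of lower calls 1.02%; median -0.36, range -0.64 to -0.04). By adjusted p under 0.10 alone, 9 of 10 red cell, 2 of 3 adipocyte and 8 of 9 proximal tubule elements were lower in Umod C93F, and 0 were higher. Over all tested elements of that line, 551 of 3335 had an adjusted p under 0.05 with no fold, in either direction. The part of these other cells in the values of Atp1b1 was not tested.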

How the data were processed

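Kidney RNA from 4 Umod A227T and 4 Umod C93F males was hybridised against wild-type RNA pooled within the line, on 16 two-colour cDNA arrays, so that each mouse had 2 arrays of opposite dye orientation. The deposited scans give, for both channels and before any normalization, the median foreground and background intensity of a spot, its percent of saturated pixels and a flag for spots not found. The authors also deposited log2 ratios for every mouse, with unstated centring and direction. The methods describe filters on signal over background and dye consistency, but the Umod C93F columns also hold values of spots under 2 times background. The columns have medians of 0.007 to 0.047, and hold 4963 to 6976 values in Umod A227T and 17631 to 18029 in Umod C93F. The authors called elements with SAM.

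The intensities were processed in R 4.3.3 with limma 3.58.1, by normexp (offset 50) and loess within arrays with flagged spots at weight 0. Ratios were turned to mutant over wild type: scans named CY3 first correlated positively with the authors' ratios and scans named CY5 first negatively. Red over green of arrays of one line and orientation correlated at 0.206 to 0.418. Spots of a clone and then the arrays of a mouse were averaged. Each line was fitted against 0 by lmFit and eBayes, and p-values were adjusted after Benjamini-Hochberg over all elements tested. Elements needed an unflagged spot whose foreground was 2 or more times background in either channel, on each array of 3 or more mice. No spot of Umod C93F was flagged as not found, so the flag removed spots in Umod A227T only. Calls required a fold over 1.4 and, after adjustment, a p under 0.10. The methods give the same cut-offs, but for the false discovery rate of SAM, which limma replaced here. The difference between lines was fitted over 8 mice. Replicates are separate mice per the labels, and their number limits the precision.

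The lines differ in the order of the spots in their scans, and spots were matched on block, column and row; at 217 of 20794 positions the Umod C93F scans carry a different clone name. The platform annotation gives 1 symbol for 12771 positions, several for 0 and none for 8023. No genome build was used, and no coordinates are given. The members and the companion lists (other genes of the segment, Na,K-ATPase and FXYD, regulators, and markers of other tubule and non-tubule cells) were chosen with earlier results of these data known. Named genes are the members, Umod, those of the companion lists that were called or had the lowest adjusted p, and the 3 elements most like a member; the element MG-12-246h20 of Cldn10, the least changed element of Atp1b3 and the second of Ppp1r1a were named after their values were seen. A few genes of these lists are not reported here. Simulated arrays with known ratios were used to test the steps. Alternatives changed the background correction, the normalization, the scaling, the filters and the thresholds, used the authors' ratios or a single element per gene, or left out a mouse at a time. There were 0 array columns without a mouse.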

Additional observations from a re-analysis of the deposited data

Results flagged for a closer look

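The log2 ratio of Bsnd in Umod C93F mouse 2 was -1.09, and the other 3 mice of the line lay between -0.04 and 0.14. The gap to the nearest mouse was 0.849 of the range of the 4 mice, above Dixon's critical value for 4 samples. The value rests on a red reading of 1 array at 2.50 times background. It was the 1 such value among 8 groups of 4 mice, that is 4 elements in 2 lines; about 1 in 20 groups passes this limit by chance.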

How the results depend on the processing

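Atp1b1 kept its direction and stayed uncalled under all planned settings of both lines and of the difference that gave a value. The authors' ratios gave none. Changes of filter, threshold, elements per gene or replicate block left the value itself as it was, so they add nothing on its direction. Leaving out 1 mouse gave 0.04 to 0.16 in Umod A227T, -0.18 to -0.03 in Umod C93F and 0.12 to 0.28 for the difference. With scans named CY5 first only, Atp1b1 was -0.0655 in Umod A227T and -0.52 in Umod C93F, so that 1 member was called in that line. With scans named CY3 first only it was 0.28 in Umod C93F and -0.0342 for the difference. The replicate block left the difference of Atp1b1 at 0.21 (limma, adjusted p = 0.126). Mice of the same number deviated with r of -0.06 to -0.003 over 2166 elements. The labels do not say that the numbers pair the mice, and these correlations cannot show what else they share. For the difference, the block changed none of the calls in the 5 elements it was recorded for. These were of Atp1b1, Umod, Cldn10 (MG-14-18i7), Fxyd2 and Atp1b3 (MG-3-91a10).

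The elements called in Umod A227T, Umod C93F and the difference were 166, 35 and 114. Local background subtraction gave 292, 73 and 205, normexp without an offset 281, 70 and 194, the stricter filter 99, 21 and 63, and an adjusted p under 0.05 with no fold 624, 551 and 469. Without background correction 23 were called in Umod C93F. The difference had 174 calls with median centring and 218 without a filter. The authors' ratios gave 9 in Umod C93F and 420 for the difference. Umod in Umod A227T turned to 0.0722 with median centring and 0.0065 with the authors' ratios, and the element MG-14-18i7 of Cldn10 in Umod A227T to 0.0602 with median centring. The cause was not tested.

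Without any filter on dim spots, limma gave Slc12a1 0.16 in Umod A227T (adjusted p = 0.586) and -0.05 in Umod C93F (adjusted p = 0.785), Bsnd -0.05 in Umod A227T (adjusted p = 0.831) and -0.23 in Umod C93F (adjusted p = 0.675), and Egf 0.0014 in Umod A227T (adjusted p = 0.996) and 0.03 in Umod C93F (adjusted p = 0.871). Signal over background limits these 3 genes.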

Other observations

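Segments next to the thick ascending limb were thinly measured. Of the distal convoluted tubule genes 1 of 5 elements was tested in Umod A227T, that of Cnnm2, and 0 of 4 in Umod C93F, and none was called. Principal cell genes, which include the water channel gene Aqp2, had 4 of 6 elements tested in Umod A227T (median 0.29) and 2 of 6 in Umod C93F (median -0.09), with none called. Over all tested elements, an adjusted p under 0.05 with no fold was met by 624 of 9211 in Umod A227T and 551 of 3335 in Umod C93F. By adjusted p alone 2 principal cell elements were higher in Umod A227T and 0 lower. These were Aqp2 at 0.48 (limma, adjusted p = 0.00715) and Hsd11b2 at 0.41 (limma, adjusted p = 0.0055), under the fold threshold. In Umod C93F 1 was lower, Aqp4 at -0.21 (limma, adjusted p = 0.0074). Intercalated cell genes, which include Car2 and Rhcg, had 6 of 10 tested in Umod A227T (median 0.04) and 2 of 10 in Umod C93F (median -0.09), with none called. Podocyte and endothelial genes had 7 of 10 tested in Umod A227T (median 0.06) and 3 of 9 in Umod C93F (median -0.10), and leukocyte genes 3 of 10 in Umod A227T (median 0.32) and 2 of 10 in Umod C93F (median -0.05), again with none called. By adjusted p alone 2 leukocyte elements were higher in Umod A227T, Lyz2 at 0.35 (limma, adjusted p = 0.0158) and Cd74 at 0.32 (limma, adjusted p = 0.0263). Pecam1 was lower in Umod A227T at -0.28 (limma, adjusted p = 0.0375), and Cdh5 in Umod C93F at -0.25 (limma, adjusted p = 0.0151).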
